A study of Mus musculus with 9 samples.

Results

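The cytosolic ribosomal protein genes are the 84 genes, of 48526 in the count table, that were annotated as protein-coding and whose symbol is Rpl or Rps followed by a number (with the endings a, l, x, al, l1 or a1 allowed), or is Rplp0, Rplp1, Rplp2 or Rpsa. They comprised 52 proteins of the large subunit and 32 of the small subunit, encoded on 19 chromosomes. They were measured by RNA-seq in adult neural stem cells (NSCs) isolated from the subependymal zone (SEZ) of C57BL/6 mice (C57BL/6J in the methods) of 2 to 4 months of age, with no transgene or knockout in any group. The cells were expanded as neurospheres with EGF and FGF, and differentiation was started by withdrawing EGF from cells on Matrigel while FGF was kept. For cells fixed soon after the start, the methods describe a first period on the plate with both factors. NSCs before this change (0 h) were compared with cells 1 h and 6 h after it, with 3 replicates at each time. The cultures hold cells taken out of the niche, and neither the labels nor the methods state what libraries with the same replicate number share or whether each replicate was a separate mouse, so p-values measure the spread between these libraries, which may be technical.

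Each ribosome carries 1 copy of almost every ribosomal protein, and the proteins are needed in equal amounts on the 18S rRNA of the small subunit and the 28S, 5.8S and 5S rRNAs of the large subunit. Their mRNAs are short, abundant and stable, and most of them start with a cytosine followed by a run of pyrimidines, the 5′ terminal oligopyrimidine (TOP) tract. Growth factors acting through the kinase mTORC1 raise the translation of TOP mRNAs, and the protein LARP1 binds the tract and the cap when mTORC1 is off. NSCs make many ribosomes while they proliferate, and EGF is one of the growth factors that activate this pathway.

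To show what these genes share at their 5′ end, the RefSeq start sites (GRCm38.p6) were searched for a C followed by at least 4 bases that are each C or T, on the strand of the gene and beginning exactly at the annotated start. RefSeq entries were found for 64 of the 84 genes, with 76 start sites. The tract stood at 13 of the 76 starts (17.1%), against 823 of all 32851 starts (2.51%) and 2.23% of those of protein-coding genes. The shorter word CTTTC, on the gene strand between 20 bases before and 50 after the start, was present at 34 of the 76 starts (44.7%) against 8.97% of all starts, and it can overlap the tract. The word CCGGAAG, the core bound by ETS factors, was found on either strand of the 300 bases around 35.5% of these starts. Its share was 8.86% of all starts and 11.9% of those of protein-coding genes. TATAAA, within the 50 bases before the start on the gene strand, was found at 1 of these starts (Rpl22l1). Its share was 2.63% of all starts and 3.07% of those of protein-coding genes. These matches are descriptions, and other start sites of the same genes were not examined. The starts of 6 genes with a tract, chosen because they include Rps6, the S6 kinase substrate, and genes whose values are given later, are printed 5′ to 3′ as 30 bases centred on the start, with the tract in capitals. They lie at chr4:86857353-86857382 (Rps6, minus strand), chr2:39005117-39005146 (Rpl35, minus), chr11:114668565-114668594 (Rpl38, plus), chr9:120571502-120571531 (Rpl14, plus), chr7:118116133-118116162 (Rps15a, minus) and chr3:90213634-90213663 (Rps27, minus).
Rps6: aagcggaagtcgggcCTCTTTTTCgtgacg
Rpl35: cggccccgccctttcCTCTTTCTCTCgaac
Rpl38: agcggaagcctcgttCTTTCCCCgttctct
Rpl14: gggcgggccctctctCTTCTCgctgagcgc
Rps15a: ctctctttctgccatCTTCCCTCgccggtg
Rps27: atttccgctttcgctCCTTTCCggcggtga

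The libraries held between 65871454 and 105592597 counts, which the ribosomal protein genes took up as follows. In replicates 1, 2 and 3 they received 3.32%, 3.14% and 3.33% of all counts at 0 h, 3.36%, 3.24% and 4.15% at 1 h, and 2.97%, 2.96% and 3.24% at 6 h. The 1 h library of replicate 3 was therefore the highest of the 9, and the 6 h library was the lowest within each replicate. Large subunit genes took between 1.64% and 2.27% of the counts and small subunit genes between 1.31% and 1.88%, with the same library highest. The 272 pseudogenes named after a member took between 0.0386% and 0.0533%. All 8 NSC markers, among them Nes, Sox2, Vim and Fabp7, passed the filter on low counts, with a summed level between 6683 and 9580 CPM (counts scaled to the library size), whereas 5 microglial markers summed to 0.0814 to 0.526 CPM and 4 of 5 erythroid markers had no count. The summed levels of 5 neuronal markers overlapped between times (963 to 1482 CPM at 0 h, 834 to 1502 at 1 h and 1001 to 1565 at 6 h), and those of 4 mural markers were 51.9 to 95.1, 63.1 to 108 and 32.4 to 45.8 CPM. Single markers moved with time, however. With the replicate number as a block, 3 of 5 neuronal markers were higher at 6 h than at 0 h (median log2 fold change of the list 1.06) and than at 1 h (0.98), as were 2 of 4 tested oligodendrocyte markers (0.41 and 0.45). Of all tested genes, this fit called 17.4% higher and 17.5% lower at 6 h against 0 h. At 6 h against 1 h the shares were 18.0% and 17.5%. Of the 8 NSC markers, 3 were higher and 2 were lower at 6 h in both comparisons. Of 3 tested mural markers 1 was higher and 2 were lower at 6 h in both comparisons, and of 3 tested ependymal markers 2 were lower than at 0 h and 1 than at 1 h. The 1 tested microglial marker and 1 of 2 tested endothelial markers, from lists with low summed levels, were lower in both. Their part in the results was not tested, and in bulk samples fewer cells of a type cannot be told apart from less RNA per cell.

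Of the 84 genes, 81 passed the filter and were tested among 18858 genes. The 3 that did not are copies with restricted expression: Rpl10l and Rpl39l, retrogenes known from testis, had no count in any library, and Rpl3l, the muscle form of Rpl3, had between 0 and 9 counts per library. Levels of different genes are compared here as CPM divided by the mean length of the annotated transcripts in kb. At 0 h the 81 genes had a median of 463 CPM per kb, with quartiles at 344 and 652. The highest was Rpsa, the small subunit protein also named laminin receptor, with 1480 ± 138 CPM per kb (SD, n = 3). It was followed by Rps2 (1266 ± 313), Rps4x (1239 ± 16.2) and the stalk proteins Rplp0 (1236 ± 150) and Rplp1 (1229 ± 90.9), whose order was within their spread. The lowest were Rpl36al (98.4 ± 1.58), Rpl22l1 (82.8 ± 10.3), Rpl35 (53.9 ± 5.40), Rpl13a (47.4 ± 3.79) and Rpl24 (1.26 ± 0.277). Rpl24 shares exons with Gm28037 and Rpl13a with Gm45713 on the same strand, and both of these neighbours had 0 counts in every library. The gene counting of STAR leaves out reads that fall on more than 1 gene, and its part in these low values was not tested. Rpl35 has neighbours on the other strand, Arpc5l and Wdr38, and 19 of the 84 genes overlap a gene there, while 28 overlap a gene on their own strand. The strand setting of the counting is not given in the sources used here.

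**Figure D1:**
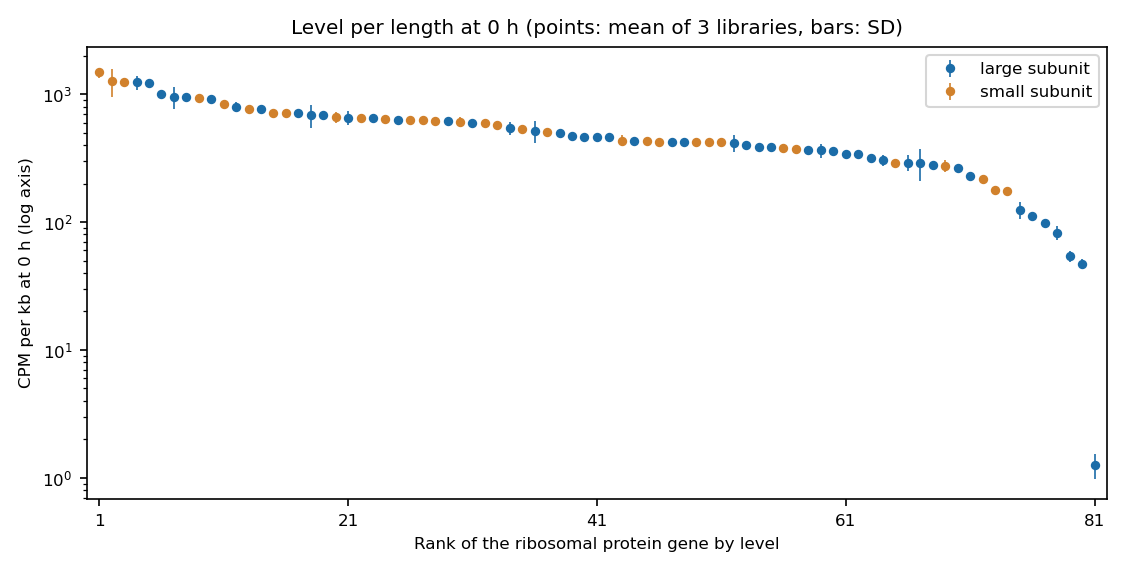
Each point is the mean level of 1 of the 81 tested genes at 0 h in CPM per kb of transcript (vertical log axis) against its rank by level (horizontal axis), with the SD of 3 libraries as bars, large subunit in blue and small subunit in orange. The quartiles are 344 and 652 CPM per kb, and Rpl24 stands alone at 1.26.

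Within each replicate, the ribosomal protein mRNAs changed little at 1 h except in replicate 3, and all replicates were lower at 6 h. The ratio of 6 h to 1 h on the log2 scale had a median over the 81 genes of -0.22 in replicate 1, -0.15 in replicate 2 and -0.39 in replicate 3, so that the median level fell by 14.1%, fell by 9.79% and fell by 23.8%. It was below 0 for 81, 80 and 81 genes. The ratio of 6 h to 0 h had medians of -0.20, -0.086 and -0.065, with 81, 73 and 70 genes below 0. The ratio of 1 h to 0 h had medians of 0.032, 0.057 and 0.32, with 59, 70 and 80 genes above 0. The median over all tested genes lay within 0.01 of 0 in each of these 9 ratios. Replicate 3 thus had the largest values where the 1 h library enters, and replicate 1 the largest fall from 0 h to 6 h.

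**Figure D2:**
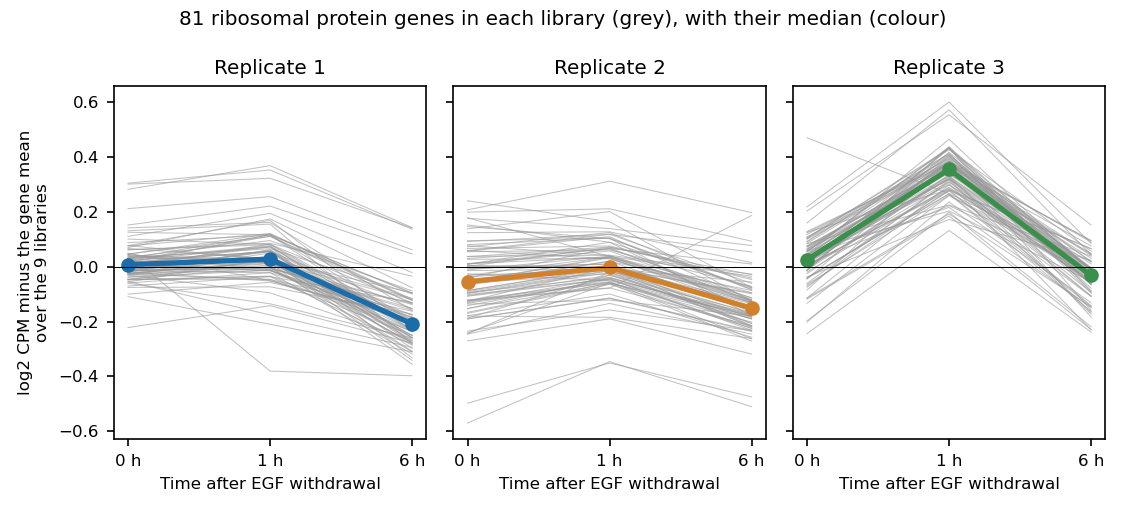
Each grey line is 1 of the 81 genes, drawn as its log2 CPM minus its own mean over the 9 libraries (vertical axis) at 0, 1 and 6 h after EGF withdrawal, in 1 panel per replicate, and the coloured line is the median. The medians fall from 1 h to 6 h in all 3 panels, and the 1 h median of replicate 3 stands highest at 0.35.

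With time point as the only factor, no ribosomal protein gene passed an adjusted p of 0.05 in edgeR in any of the 3 comparisons. The shares of all tested genes called in either direction were 0.0424% at 1 h against 0 h, 2.42% at 6 h against 0 h and 2.14% at 6 h against 1 h. At an unadjusted p under 0.05, 0, 2 and 41 of the 81 genes passed, all of them lower at 6 h, against 3.9% of all genes in either direction at 1 h against 0 h and 8.6% and 8.0% of all genes lower in the other comparisons. DESeq2 called 0, 0 and 1, lower at 6 h than at 1 h (background 3.31%). Over the 81 genes, log2 fold changes had medians of 0.14, -0.12 and -0.26, and the median standard error was 0.11 per gene. Without the 1 h library of replicate 3, the medians at 1 h against 0 h and at 6 h against 1 h were 0.029 and -0.15. The spread that entered these errors was largely between replicate numbers: the biological coefficient of variation was 0.277 with time alone and 0.0627 with the replicate number as a block, which was fitted because same-numbered libraries deviated together.

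With the block, 77 of the 81 genes were lower at 6 h than at 1 h and none was higher, against 17.5% of all tested genes called lower and 18.0% called higher. The median log2 fold change was -0.26 (the level fell by 16.4%), with values between -0.36 and 0.0019 and a median standard error of 0.063. The levels of 80 genes were lower at 6 h in 3 of 3 replicates (28.2% of all genes), and for 35 genes all 6 h libraries lay below all 1 h libraries, while none had all of them above (22.2% of all genes did not overlap in either direction, and 1891 of the 18858 tested genes had all 6 h libraries below). Both subunits took part, with 47 of 49 large subunit genes called (median -0.25) and 30 of 32 small subunit genes (median -0.26). Without the 1 h library of replicate 3, 70 genes were lower (background 17.4%) with a median of -0.18, and with the trends of each library in transcript length and GC content removed, 74 were lower (background 21.3%) with a median of -0.23.

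**Figure D3:**
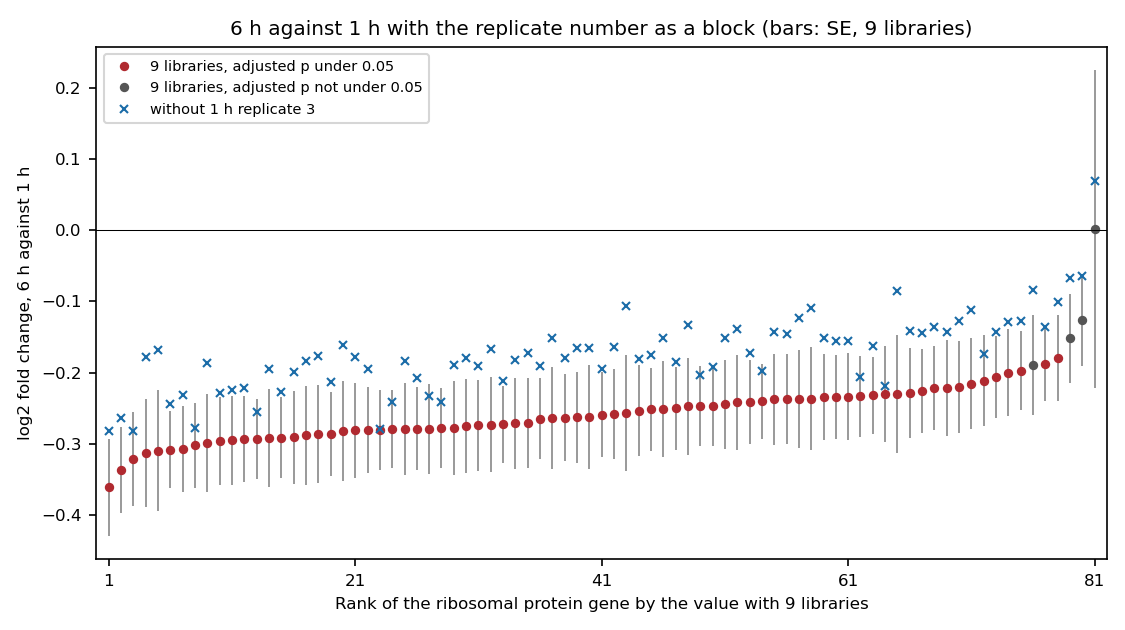
Points are the log2 fold changes of the 81 genes at 6 h against 1 h with the replicate block and 9 libraries (vertical axis) against the rank of the gene by this value (horizontal axis), with standard errors as bars. Filled red points passed an adjusted p of 0.05, grey ones did not, and blue crosses give the value without the 1 h library of replicate 3, which was closer to 0 for most genes.

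The deepest fall between 1 h and 6 h was that of Rps27a, which encodes a fusion of ubiquitin with a small subunit protein. In replicates 1, 2 and 3 it was at 441, 470 and 564 CPM at 1 h and at 342, 386 and 419 CPM at 6 h. All 6 h libraries lay below all 1 h libraries, and the log2 fold change with the block was -0.36 ± 0.068 (SE, adjusted p = 0.00131), or -0.28 without the 1 h library of replicate 3 (adjusted p = 0.00325). Rps25, a small subunit protein needed by several viral internal ribosome entry sites, was at 429, 493 and 521 CPM at 1 h and at 346, 407 and 389 CPM at 6 h, again without overlap (-0.34 ± 0.061, adjusted p = 0.00096). Both genes overlap others on the opposite strand (Clhc1, and Ccdc84 and Trappc4). Rps12, a protein of the beak of the small subunit, was at 508, 437 and 588 CPM and then at 376, 378 and 469 CPM, with 1 library of 6 h above the lowest of 1 h (-0.32 ± 0.066, adjusted p = 0.00232).

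Members are given next by role, as parts of a set in which 80 of the 81 estimates at 6 h against 1 h were below 0. Rps6, the substrate of S6 kinase, was at 350, 344 and 455 CPM at 1 h and 289, 304 and 350 CPM at 6 h. The 6 h value of replicate 3 was level with the 1 h values of the other replicates, and the change with the block was -0.28 ± 0.059 (adjusted p = 0.00257). Rpl5 and Rpl11 join the 5S rRNA and can bind the p53 regulator Mdm2, and both were lower at 6 h (-0.23 ± 0.059 and -0.25 ± 0.058, adjusted p = 0.00756 and 0.00501). The 4 stalk genes, which recruit elongation factors, were all lower, with Rplp1 at 693, 625 and 865 CPM at 1 h and 597, 569 and 611 CPM at 6 h (-0.29 ± 0.069, adjusted p = 0.00582), Rplp0 at -0.21 and Rplp2 at -0.23. Rpsa changed from 1751, 1434 and 2057 CPM to 1472, 1322 and 1492 CPM (-0.28 ± 0.065, adjusted p = 0.00497). Rps2 and Rps3, at the mRNA entry of the small subunit, were at -0.23 and -0.25, and all 8 genes at the exit of the peptide tunnel were lower (median -0.24). The 4 X-linked genes Rps4x, Rpl10, Rpl36a and Rpl39 were lower with a median of -0.28. All 16 genes mutated in Diamond-Blackfan anaemia had estimates below 0, and 14 of them were called lower, Rps19 among them (-0.27 ± 0.064, adjusted p = 0.00509).

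The 4 tested genes that were not called at 6 h against 1 h were Rpl24, Rpl13a, Rps28 and Rps29. Rpl24 had under 1 CPM in every library (0.0019 ± 0.22). Rpl13a was at 22.3, 25.8 and 29.4 CPM at 1 h and 20.5, 24.6 and 25.8 CPM at 6 h (-0.13 ± 0.065, adjusted p = 0.153). Both share exons with another gene on the same strand, as given with their levels. Rps28 and Rps29, small proteins near the mRNA exit and the head of the small subunit, were well expressed. Rps28 was at 204, 217 and 252 CPM at 1 h and 188, 206 and 209 CPM at 6 h (-0.15 ± 0.062, adjusted p = 0.0744), and Rps29 at 274, 291 and 341 and at 245, 280 and 269 CPM (-0.19 ± 0.070, adjusted p = 0.0511). Both were lower at 6 h in 3 of 3 replicates, so a failed call does not show that they did not change. The calls just inside the threshold included Rpl35 (-0.23 ± 0.083, adjusted p = 0.0461), Rpl3 (-0.18 ± 0.060, adjusted p = 0.033) and Rpl41, the shortest protein of the set (-0.26 ± 0.082, adjusted p = 0.0266).

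At 6 h against 0 h fewer genes were called. With the block, 16 of the 81 genes were lower (19.8%) and none was higher, against 17.5% of all tested genes called lower and 17.4% called higher, so the share of calls was near the background. The median log2 fold change was -0.13 (the level fell by 8.44%), and all 81 estimates were below 0. It was -0.073 without replicate 1 and -0.083 without its 0 h library alone. The levels of 62 genes were lower in 3 of 3 replicates (31.7% of all genes). For 19 genes all 6 h libraries lay below all 0 h libraries (12.1% of all genes). None had all of them above, against 12.8% of all genes. Rps27a again changed most, from 448, 462 and 437 CPM at 0 h (-0.24 ± 0.068, adjusted p = 0.0154). Rpl22l1 came next without passing the threshold (-0.23 ± 0.085, adjusted p = 0.0552). Rps15a was lower, from 326, 323 and 354 CPM at 0 h to 258, 280 and 340 CPM at 6 h (-0.20 ± 0.056, adjusted p = 0.0133), with replicate 3 overlapping the 0 h libraries. Rpl14, another gene with a tract at its start, was at 394, 392 and 375 CPM at 0 h and at 347, 343 and 321 CPM at 6 h (-0.20 ± 0.071, adjusted p = 0.0436). Rpl14 also has a named pseudogene that held 77.7 CPM on average. Rps4x (-0.17) and Rpl10 (-0.15) were called as well, whereas Rps6 was at -0.15 ± 0.059 (adjusted p = 0.0622) and Rplp1 at -0.047 ± 0.068. The number of calls depended on the fit: it was 45 with length and GC trends removed (background 20.9%), 50 without the 1 h library of replicate 3 (background 21.0%), and 0 without replicate 1, without replicate 2, or without the 0 h library of either. Leaving out a 6 h library gave 1, 2 or 7 calls, leaving out the 1 h library of replicate 2 gave 9, leaving out the 0 h library of replicate 3 gave 37, and leaving out replicate 3 as a whole gave 48.

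At 1 h against 0 h no ribosomal protein gene passed with the block, against 1.36% of all tested genes called higher and 2.14% called lower, and 43 had an unadjusted p under 0.05, all of them higher (8.28% of all genes). DESeq2 with the block called 6 genes higher (background 2.75%), among them Rplp1, Rpsa and Rps2. The median log2 fold change was 0.13, but 0.061 without the 1 h library of replicate 3, 0.064 without its 0 h library and 0.044 without replicate 3. The levels of 56 genes were higher at 1 h in 3 of 3 replicates (20.8% of all genes). For 5 genes all 1 h libraries lay above all 0 h libraries (3.3% of all genes). None had all of them below, against 4.93% of all genes. Rplp1 had the highest estimate, from 645, 561 and 633 CPM at 0 h to 693, 625 and 865 CPM at 1 h (0.24 ± 0.069, adjusted p = 0.083). Rpl13 (0.22) and Rpl18 (0.20) were also among the highest estimates. The lowest estimates among genes of at least 1 CPM were those of Rpl13a (-0.041), Rpl22 (0.0034), Rpl7l1 (0.034), Rpl23 (0.052) and Rpl39 (0.066), none of them larger than its standard error of between 0.052 and 0.068.

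The 1 h library of replicate 3 differed from the others by transcript length. Its log2 deviation from the gene means fell by 0.0611 for each doubling of length over 18779 genes, whereas the slopes of the other 8 libraries lay between -0.0041 and 0.027. Ribosomal protein transcripts are short, with a median of 713 bases against 1655.5 over the tested genes. In this library the median deviation of the 81 genes was 0.35, all 81 lay above their own means, and the medians of the other libraries were between -0.21 and 0.027. Other genes of 500 to 750 bases deviated by a median of 0.13, and the 36 ribosomal protein genes of that length by 0.37. From 750 to 1000 bases the medians were 0.14 for other genes and 0.36 for 24 ribosomal protein genes, and from 1000 to 1500 bases they were 0.087 and 0.33. Removal of the length and GC trends left a median deviation of 0.30. The deviation of the set in this library was therefore larger than that of other genes of the same length in each class that held them.

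**Figure D4:**
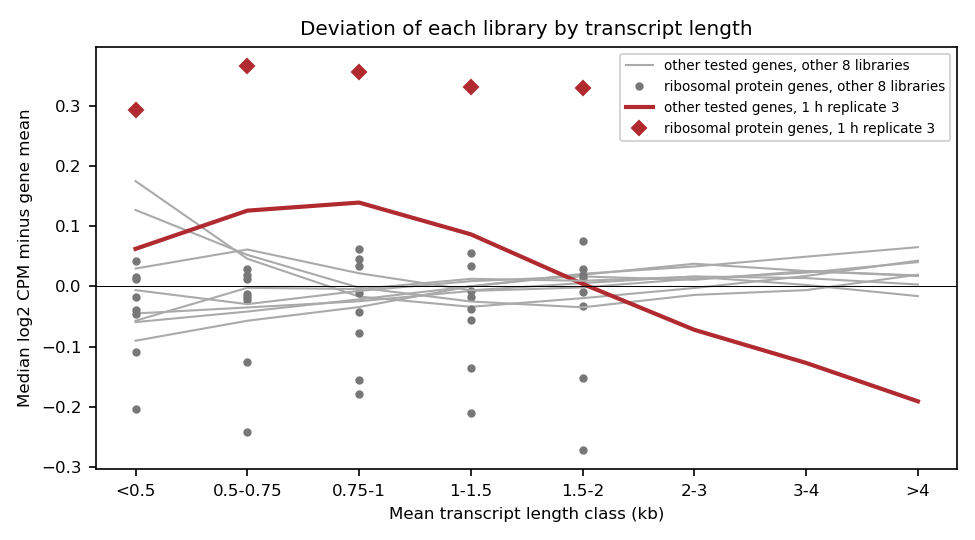
The vertical axis gives the median log2 CPM minus the gene mean for genes in each class of mean transcript length (horizontal axis, kb), with lines for other tested genes and points for ribosomal protein genes, in red for the 1 h library of replicate 3 and in grey for the other 8 libraries. The red points lie between 0.29 and 0.37, above the red line in the 5 classes that hold ribosomal protein genes.

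Paralogs were compared with their partners side by side. Rpl22l1 can replace Rpl22, and at 0 h its level was 82.8 CPM per kb. It was at 44.7, 57.9 and 69.7 CPM at 1 h and 41.7, 47.4 and 48.7 CPM at 6 h, and its ranges overlapped (-0.31 ± 0.085, adjusted p = 0.0128). That call was lost without the 1 h library of replicate 3 (-0.17, adjusted p = 0.0559). Rpl22 itself was at 223, 238 and 266 CPM and at 203, 212 and 223 CPM (-0.19 ± 0.052, adjusted p = 0.0131), and it was also lower at 6 h than at 0 h (-0.19, adjusted p = 0.0145). Rpl7l1, a nucleolar relative of Rpl7, was lower at 6 h than at 0 h (133, 149 and 139 against 118, 127 and 122 CPM, -0.20 ± 0.054, adjusted p = 0.0127), and Rpl7 was at -0.12 ± 0.064 (adjusted p = 0.166). Rpl36al and Rpl36a were at -0.27 and -0.29 at 6 h against 1 h. Rps27l, known as a p53 target, was at -0.20 ± 0.061 (adjusted p = 0.0217) and Rps27 at -0.26 ± 0.059 (adjusted p = 0.00452). The difference between paralogs was not tested. Reads of near-identical copies are uncertain, since only reads with 1 place in the genome can be assigned.

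Some members differed more between replicates than over time. The range of the replicate means was larger than the range of the time means for 29 of 81 genes, with medians of 0.22 and 0.26 on the log2 scale. Rpl13, a large subunit protein, was at 332, 343 and 300 CPM at 0, 1 and 6 h in replicate 1 and at 334, 435 and 304 CPM in replicate 3, but at 194, 226 and 202 CPM in replicate 2. Rps2 was likewise at 782, 865 and 794 CPM in replicate 2 and between 1139 and 1618 CPM in the other replicates. On the log2 scale replicate 2 differed from the mean of the other replicates by -0.71 for Rpl13, -0.66 for Rps2 and -0.39 for Rpl18, and by 0.36 for Rpl23a. The 3 members on chromosome 1, Rpl7, Rpl31 and Rpl37a (named after their values had been seen), were higher in replicate 1 than in the other replicates by 0.40, 0.38 and 0.39. The 1280 tested genes of chromosome 1 were higher there by a median of 0.45. Rpl7 was at 1167, 1207 and 1039 CPM in replicate 1 and between 789 and 1075 CPM in the others. These differences were present at all 3 times, and they enter the errors of a fit without the block. Their source was not tested.

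**Figure D5:**
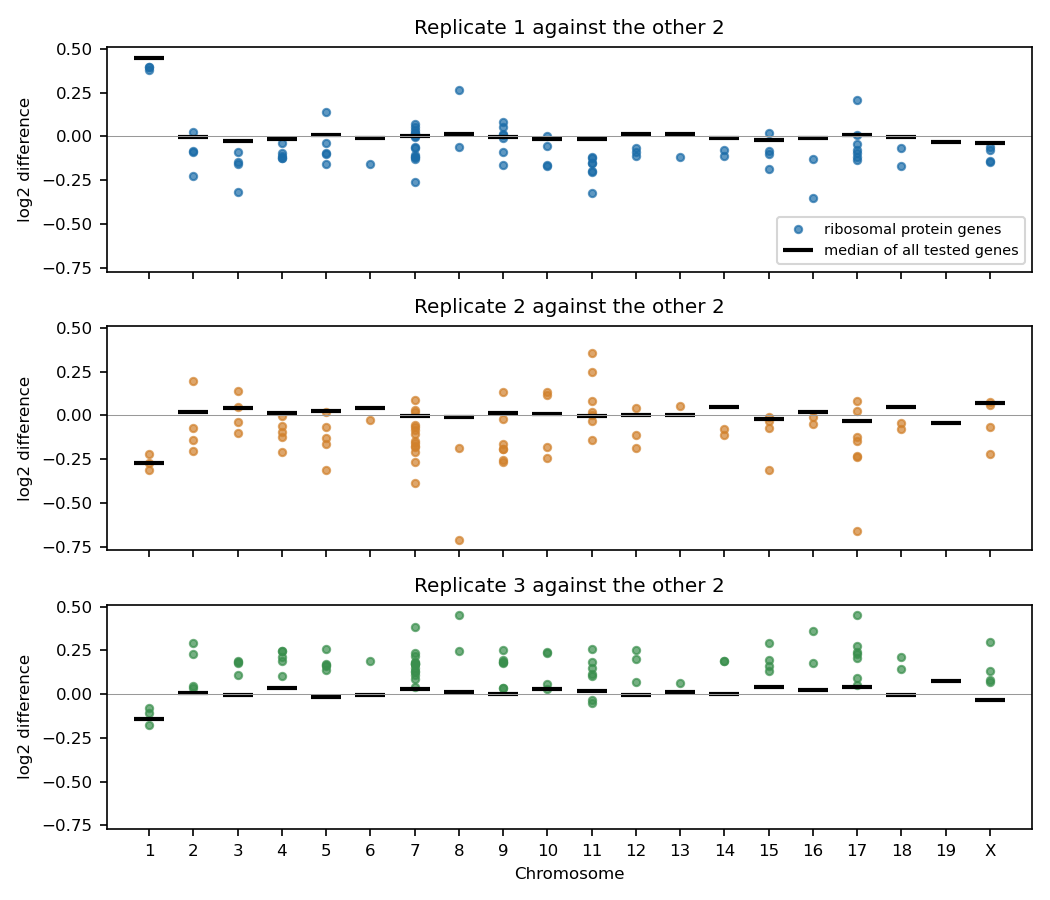
Each coloured point is 1 ribosomal protein gene, placed by its chromosome (horizontal axis) and by the log2 difference between 1 replicate and the other replicates over the 3 times (vertical axis), with 1 panel per replicate and black bars for the median of all tested genes of a chromosome. In replicate 1 the 3 genes on chromosome 1 lie near the bar at 0.45, and in replicate 2 Rpl13 (-0.71) and Rps2 (-0.66) lie lowest.

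Values with the block were also read by the tract at the RefSeq start. For the 13 genes with a tract, log2 fold changes had a median of -0.26 at 6 h against 1 h and of -0.13 at 6 h against 0 h, and for the other 48 tested genes with a RefSeq start the medians were -0.26 and -0.13. This split was not tested. Since annotated starts can miss a tract by a few bases, the tract may have been missed in some genes.

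Other genes of the translation apparatus were read in the same fits. Of all tested genes, 17.5% were called lower at 6 h in either comparison, and 18.0% and 17.4% higher at 6 h against 1 h and against 0 h. Of 3 listed ribosomal protein genes that the symbol rule leaves out, Fau and Rack1 were lower at 6 h than at 1 h (both -0.27, adjusted p = 0.0138 and 0.00415). The third was not called, with an estimate of 0.0089, and none of the 3 was called at 6 h against 0 h. Of 38 translation and ribosome assembly genes, 29 were lower and none was higher at 6 h against 1 h with the block (median -0.21), and 23 were lower and none higher at 6 h against 0 h (median -0.18). Npm1, the nucleolar protein nucleophosmin, fell most, from 913 ± 60.9 CPM at 0 h and 897 ± 120 at 1 h to 608 ± 89.2 at 6 h (SD, n = 3), with log2 fold changes of -0.60 and -0.56 (adjusted p = 5.93e-06 and 1.01e-05). The initiation factors Eif2s1 (-0.41 at 6 h against 0 h) and Eif4a1 (-0.39 at 6 h against 1 h), the elongation factor Eef1d (-0.36 at 6 h against 1 h) and the 40S assembly factor Tsr1 (-0.40 at 6 h against 0 h) were lower too. Tsr1 was also the gene of this list that was lower at 1 h than at 0 h (-0.31, adjusted p = 0.00257). Among 22 genes of the mTORC1 and LARP1 pathway, 2 were higher and 6 lower at 6 h against 0 h, and 3 were higher and 4 lower against 1 h, which is 9.09% and 27.3% of the list and then 13.6% and 18.2%. Tsc1, an inhibitor of mTORC1, was higher (0.29 and 0.38), Rps6kb2, an S6 kinase, was higher at 6 h against 0 h (0.37, adjusted p = 0.00127), Deptor, which binds mTOR, was lower (-0.65 and -0.68), and Akt1s1, a repressor of mTORC1, was lower at 6 h than at 1 h (-0.20). Deptor had a low level, at 2.88 ± 0.974 CPM at 0 h, 2.96 ± 1.19 at 1 h and 1.78 ± 0.234 at 6 h (SD, n = 3). Of 77 mitochondrial ribosomal proteins, 15 were called lower and 1 higher at 6 h against 1 h (median -0.11). At 6 h against 0 h, 6 were called lower and 1 higher (median -0.027). The share called lower was near the background in the first comparison (19.5%) and below it in the second (7.79%). The share called higher was below the background in both (1.3%). Estimates were below 0 for 68 and 45 of the 77 genes in the respective comparisons. Mrps6 fell most in both (-0.65 and -0.62). None of the genes named in this paragraph passed the adjusted p in edgeR with 9 libraries and time alone. DESeq2 without the block called 3.8% of all genes lower at 6 h against 0 h and 3.31% at 6 h against 1 h. Of the 38 translation and assembly genes it called 10 and 5 lower in the respective comparisons. For mitochondrial ribosomal proteins the numbers called lower were 2 and 1. In the mTORC1 and LARP1 list 1 gene was called higher and 1 lower at 6 h against 0 h.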

How the data were processed

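RNA-seq was analysed from 9 libraries of SEZ NSCs, 3 at each of 0, 1 and 6 h. The authors aligned paired-end reads to mm10 (GRCm38) and deposited raw counts per Ensembl gene made with STAR 2.5.3a, after FastQC. Their own test was DESeq2 1.22.1. Symbols, lengths and positions came from GENCODE M21 (48144 of 48526 identifiers), and promoter sequences from RefSeq (GRCm38.p6).

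Counts were analysed here in R 4.3.3 with edgeR 4.0.16 (filterByExpr with minimum count 10 and total 15, TMM, quasi-likelihood test, Benjamini-Hochberg over 18858 genes, threshold 0.05), limma 3.58.1 and DESeq2 1.42.0, with tables in pandas 2.3.3 and numpy 2.4.6 (Python 3.11.15) and plots in matplotlib 3.10.9. The main fit used time point only. Replicate numbers were given here to the letters B, C and D in the sample titles, in that order. After removal of time means, same-numbered libraries correlated at 0.733 to 0.800 (9 pairs) and others at -0.462 to -0.314 (18 pairs), so the numbers pair the samples. Standard errors were derived from the F statistic, and log2 CPM used a prior count of 2. Length and GC trends were removed with splines of 4 degrees of freedom per library. Fits were tested on simulated data.

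The members, lists and alternatives were chosen with earlier results of these data known, so no list is independent evidence. Named genes are, for each comparison, the 5 highest and 5 lowest fold changes of members with at least 1 CPM, members with fixed roles, paralogs and their partners, the 5 highest and 5 lowest levels per kb at 0 h, and up to 3 genes of each other list. Some genes that this rule names are not reported here. Alternatives were DESeq2, the block, other scalings and filters, 6 libraries, an adjusted p under 0.01, trends removed, pseudogene counts added and leaving out libraries.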

Additional observations from a re-analysis of the deposited data

How the results depend on the processing

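Without the block, the counts stayed at 0 in the 3 comparisons, with exceptions only for lower genes at 6 h against 1 h. These were 1 under DESeq2 and 1 when genes needed an average of 1 CPM. The replicate block gave 16 lower genes at 6 h against 0 h and 77 at 6 h against 1 h. DESeq2 with the replicate block gave 6 higher at 1 h against 0 h, 21 lower at 6 h against 0 h and 78 lower at 6 h against 1 h. Length and GC trends removed with the replicate block gave 45 and 74 lower. The 3 medians moved by less than the SD of the replicates in these settings. With the replicate block, leaving out 1 library or 1 replicate number gave 58 to 79 lower genes at 6 h against 1 h but 0 to 50 at 6 h against 0 h: 0 without 0 h replicate 1, 0 h replicate 2, replicate 1 or replicate 2, 1, 2 and 7 without 6 h replicates 1, 2 and 3, 9 without 1 h replicate 2, 37 without 0 h replicate 3, 48 without replicate 3 and 50 without 1 h replicate 3. Settings with the block, most of them added after seeing the data, gave for lower genes at 6 h against 0 h 5 with library totals, 29 without a filter, 41 with only the 6 libraries compared and 0 at an adjusted p under 0.01, and 18 higher at 1 h against 0 h without a filter. The cause was not tested.

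Sign changes of the log2 fold changes of single named genes concerned estimates that did not pass the threshold with 9 libraries, without or with the replicate block. At 6 h against 1 h, Rpl24 was -0.0021 without the block and 0.0019 with the replicate block. Without the block it was 0.068 with trends removed, 0.032 with library totals and 0.0082 without a filter. With the block it was -0.0032 with DESeq2, -0.0056 with RLE, -0.00040 with TMM without the ribosomal protein genes, -0.0039 with only the 6 libraries compared and 0.076 with trends removed. With trends removed, Rpl22 was -0.030 without and -0.033 with the block and Rpl23 -0.0012 and -0.0068 at 1 h against 0 h, and Rps27l was 0.014 and 0.011 at 6 h against 0 h, where Rpl23a was 0.0037 without the block. With library totals Rpl22 was -0.0074 without and -0.012 with the block at 1 h against 0 h. When single libraries were left out without the block, values at 1 h against 0 h ranged from -0.0084 to 0.44 for Rpl13, from -0.13 to 0.066 for Rpl13a, from -0.0085 to 0.14 for Rpl14, from -0.0091 to 0.38 for Rpl18, from -0.061 to 0.067 for Rpl22, from -0.062 to 0.25 for Rpl22l1, from -0.040 to 0.15 for Rpl23, from -0.0061 to 0.22 for Rpl35, from -0.034 to 0.17 for Rpl36al, from -0.0033 to 0.28 for Rpl7, from -0.026 to 0.11 for Rpl7l1, from -0.019 to 0.41 for Rps2 and from -0.0034 to 0.21 for Rps27l. At 6 h against 0 h they ranged from -0.30 to 0.083 for Rpl13, from -0.17 to 0.11 for Rpl23a, from -0.20 to 0.025 for Rpl38, from -0.26 to 0.043 for Rpl7, from -0.15 to 0.018 for Rplp0, from -0.24 to 0.12 for Rps2, from -0.076 to 0.00048 for Rps28 and from -0.070 to 0.020 for Rps29, and at 6 h against 1 h from -0.14 to 0.17 for Rpl24. When libraries or replicate numbers were left out with the block, values at 1 h against 0 h ranged from -0.13 to 0.011 for Rpl13a, from -0.036 to 0.15 for Rpl14, from -0.063 to 0.062 for Rpl22, from -0.083 to 0.18 for Rpl22l1, from -0.059 to 0.12 for Rpl23, from -0.052 to 0.19 for Rpl35, from -0.027 to 0.17 for Rpl36al, from -0.024 to 0.14 for Rpl39, from -0.034 to 0.078 for Rpl7l1 and from -0.0035 to 0.17 for Rps28. At 6 h against 0 h they ranged from -0.069 to 0.0025 for Rpl23a, from -0.084 to 0.0023 for Rpl3, from -0.12 to 0.024 for Rpl41, from -0.10 to 0.0070 for Rplp1, from -0.084 to 0.0022 for Rps2, from -0.13 to 0.0045 for Rps28 and from -0.12 to 0.040 for Rps29, and at 6 h against 1 h from -0.20 to 0.15 for Rpl24. The median level per kb at 0 h was 463 CPM, 318 with the longest transcript and 467 with pseudogene counts added.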
